A study of Mus musculus with 36 samples.

Results

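The livers of tumour-bearing and wild-type mice taken at Zeitgeber time 12 (ZT 12, the hour of lights off) were compared on 6 of the 36 arrays of a time series, the 3 arrays titled TB at ZT 12 and the 3 titled WT at ZT 12. TB is the study's name for mice of genotype KrasLSL-G12D;p53fl/fl, a conditional model in which lung adenocarcinoma is induced, and the other mice are labelled WT. All animals were on the C57BL/6 background and lived in a cycle of 12 h light and 12 h dark. The study asked how a lung tumour relates to the daily gene program of a distant organ, and it sampled both genotypes every 4 h from ZT 0 to ZT 20, with 3 arrays per group. What drives recombination in the TB mice, the age and sex of the animals, the tumour stage and whether each array is a separate mouse are not stated in the labels. The p-values below therefore measure the spread between these arrays, which may in part be technical. In whole liver, fewer cells of a type and less RNA per cell cannot be told apart.

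Mice feed mainly in the dark, so ZT 12 is the end of the resting phase and the start of the feeding phase. The liver at this time makes fatty acids and cholesterol from acetyl-CoA under the transcription factors SREBP1c and SREBP2. Insulin and feeding chiefly switch on SREBP1c, and sterols chiefly hold SREBP2 in check. The liver is also the source of acute phase proteins, which hepatocytes make in response to IL-6 through STAT3. Bile acids are made from cholesterol, and their synthesis has a daily cycle of its own.

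Levels are given throughout as log2(intensity + 16) of the authors' probe set intensities, with 1 probe set per gene, and differences as TB minus WT on that scale, which understates the change of dim genes. The 6 arrays are called WT 1 to WT 3 and TB 1 to TB 3 after the replicate numbers in the titles. The number of arrays limits the precision. WT 3 carried skeletal muscle transcripts, so every comparison was made with all 3 WT arrays and again with WT 1 and WT 2 only. Of 27 muscle markers, 26 were higher in WT 3 than in each of the 35 other arrays of the series, with a median gap of 5.76 to the median of those arrays. The 1 exception was Car3, a carbonic anhydrase that liver also makes at a high level. The summed muscle marker intensity was 330641 in WT 3 and between 4167 and 10179.8 in the other 5 arrays of ZT 12. The 10 hepatocyte markers measured summed to 50296 in WT 3 and to between 54568 and 56629 in the other 5. WT 3 was below WT 1 and WT 2 in 8 of these 10 markers, and its score over them, the mean deviation from each gene's mean over the 36 arrays, was -0.21. That was the lowest of the 36 arrays, and the 30 arrays of the other times ranged from -0.14 to 0.10. Correlations over genes between WT 3 and the 5 other arrays ran from r = 0.928 to 0.942, and those among the other 5 from 0.978 to 0.985.

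**Figure D1:**
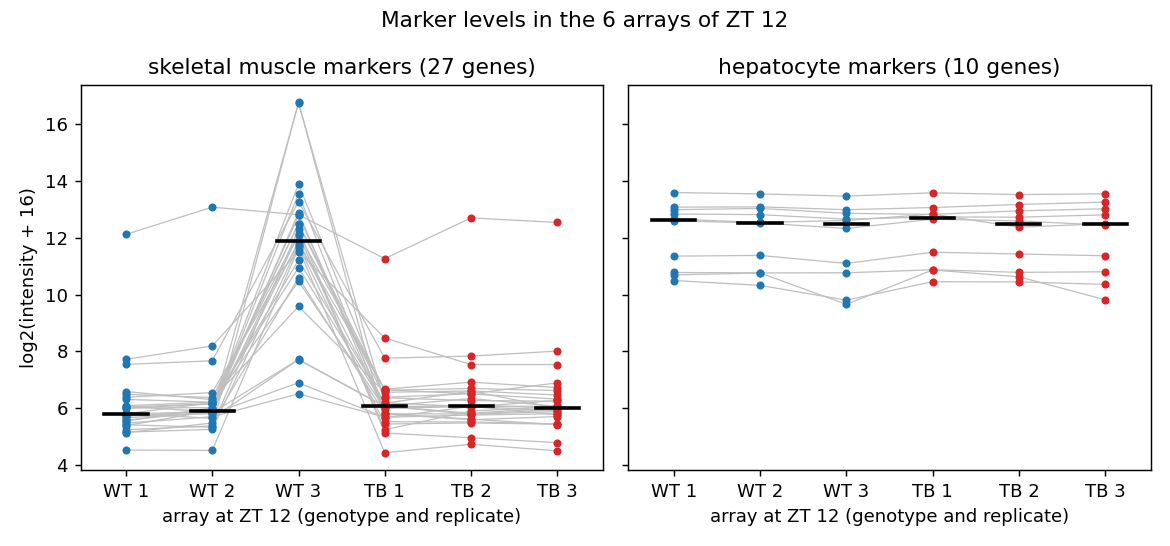
Levels, log2(intensity + 16), of 27 skeletal muscle markers (left) and 10 hepatocyte markers (right) in the 6 arrays of ZT 12. Each point is 1 gene, grey lines join the same gene across arrays and black bars are medians. The muscle markers stand high in WT 3 and low in the other arrays, apart from Car3, the line near 12 to 13 in every array, and 8 of the 10 hepatocyte markers stand lower in WT 3 than in WT 1 and WT 2.

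No gene passed the threshold of an adjusted p of 0.05 in limma, in which the 12 group means were fitted together and p-values were adjusted over 22180 genes. The smallest adjusted p was 0.199 with all 3 WT arrays and 0.316 without WT 3. With all arrays 1644 genes (7.41%) had an unadjusted p under 0.05, of which 771 were higher and 873 lower in TB. Without WT 3 this count was 1942 (8.76%), with 1167 higher (5.26%) and 775 lower. The count of 0 with all arrays held without each array in turn except WT 1, since without WT 1 the same fit called 20 genes, 2 higher and 18 lower in TB, with WT 3 then making up 1 of the 2 WT arrays. Among the genes called in that fit were Gsn, Ogn, Ecm2, Timp2, Mamdc2 and Abi3bp, which encode actin-severing or matrix proteins, and Rhoq, Txnip, Idh3b and Coq8a. Everything that follows is thus a description of 6 arrays, in which gene lists are set beside the same counts over all genes.

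Of all 22180 genes, 3816 (17.2%) had the 3 TB arrays above WT 1 and WT 2, and 2649 (11.9%) had them below both. Against all 3 WT arrays these counts were 1506 (6.79%) above and 944 (4.26%) below. The balance depended on the level. Of the 12318 genes with a mean of at least 6 in TB or WT, 1623 had TB above and 2172 had TB below WT 1 and WT 2. Against all 3 WT arrays, 727 of them had TB below. With all arrays 6890 had a negative difference, and 683 had an unadjusted p under 0.05 and were lower in TB. Without WT 3 these counts were 7347 and 703. For genes lower in TB, the shares of all genes given below are thus smaller than those at this level.

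The genes of cholesterol synthesis stood lower in the TB arrays than in WT 1 and WT 2. Of the 19 genes measured, 18 had a negative difference without WT 3 (47% of all genes did), and 16 had all 3 TB arrays below both WT arrays (11.9%). The median difference was -0.61 (0.02 for all genes), and 14 of the 19 had an unadjusted p under 0.05, all lower in TB (3.49% of all genes). With WT 3 included, the median was -0.25 (-0.08 without WT 1). An unadjusted p under 0.05 was then found for 3 genes, all lower in TB (3.94% of all genes). The TB arrays were below all 3 WT arrays in 0 of 19 (4.26% of all genes). WT 3 was below WT 1 and WT 2 in 18 of the 19 genes (37.6% of all genes), and in 18 of 19 it was no higher than the highest TB array, as it was in 16228 of the 22180 genes. The low cholesterol genes of TB at ZT 12 are therefore seen against 2 WT arrays and not against the third. With replicate 3 of both genotypes left out, since both lie in a smaller set of arrays that stood apart over probe sets with no gene symbol, the median was -0.49.

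Both lipid lists hold genes of SREBP action, and their promoters are shown because the members stood low together. The sequences are RefSeq's for mouse assembly GRCm38.p6, 250 bases before the transcription start, read 5′ to 3′ on the strand of the gene. Capitals mark CCAAT on either strand (CCAAT or ATTGG), a box common near start sites, and TCACNCCAC on either strand, the core of a sterol response element. Hmgcs1, Msmo1 and Mvd are shown for cholesterol synthesis, and Acss2, Acly and Fasn for fatty acid synthesis.

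Hmgcs1 (chr13:119690101-119690350, + strand): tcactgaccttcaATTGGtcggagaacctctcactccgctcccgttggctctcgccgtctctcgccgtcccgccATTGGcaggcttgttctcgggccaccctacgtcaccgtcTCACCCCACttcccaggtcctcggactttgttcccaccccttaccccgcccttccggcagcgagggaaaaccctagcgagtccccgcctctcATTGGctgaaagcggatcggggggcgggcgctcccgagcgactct
Msmo1 (chr8:64733579-64733828, - strand): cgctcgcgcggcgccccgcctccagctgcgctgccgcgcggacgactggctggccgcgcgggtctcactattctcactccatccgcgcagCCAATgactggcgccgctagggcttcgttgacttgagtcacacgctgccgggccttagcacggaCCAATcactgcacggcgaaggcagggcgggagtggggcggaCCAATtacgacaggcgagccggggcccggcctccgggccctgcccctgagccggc
Mvd (chr8:122443423-122443672, - strand): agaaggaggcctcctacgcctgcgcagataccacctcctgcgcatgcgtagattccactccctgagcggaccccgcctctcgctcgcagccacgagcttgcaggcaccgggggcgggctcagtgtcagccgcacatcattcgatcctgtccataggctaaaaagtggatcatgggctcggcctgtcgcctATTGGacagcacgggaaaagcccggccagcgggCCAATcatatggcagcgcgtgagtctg
Acss2 (chr2:155517793-155518042, + strand): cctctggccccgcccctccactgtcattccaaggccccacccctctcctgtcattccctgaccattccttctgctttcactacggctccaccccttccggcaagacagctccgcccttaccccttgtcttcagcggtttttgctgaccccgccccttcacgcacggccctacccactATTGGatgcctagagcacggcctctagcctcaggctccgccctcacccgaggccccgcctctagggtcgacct
Acly (chr11:100528001-100528250, - strand): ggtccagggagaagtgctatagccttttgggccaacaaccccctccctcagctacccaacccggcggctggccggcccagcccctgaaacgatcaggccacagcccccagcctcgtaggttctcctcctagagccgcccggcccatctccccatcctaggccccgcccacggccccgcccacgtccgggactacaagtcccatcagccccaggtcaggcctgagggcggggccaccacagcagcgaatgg
Fasn (chr11:120824548-120824797, - strand): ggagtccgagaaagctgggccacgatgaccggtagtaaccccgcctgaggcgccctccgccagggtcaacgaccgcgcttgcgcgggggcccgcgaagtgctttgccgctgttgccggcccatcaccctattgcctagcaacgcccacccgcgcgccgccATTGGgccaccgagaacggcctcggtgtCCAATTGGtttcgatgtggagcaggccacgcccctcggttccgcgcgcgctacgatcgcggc

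Hmgcs1 and Msmo1 each held 3 CCAAT matches in these bases and Mvd held 2. Acss2 held 1, and Acly held 0 of either motif. In Fasn 2 of the 3 matches overlapped, as CCAATTGG. Over windows from 250 bases before to 50 after the start, CCAAT occurred in 14 of the 15 cholesterol genes that had a window (93.3%), in 15 of 21 fatty acid genes (71.4%), in 3 of 21 acute phase genes (14.3%) and in 41.1% of 27025 genes with a window. A gene was counted if any of its windows held the motif, and some had several windows. By window the CCAAT shares were, in the same order, 73.7% of 19, 51.6% of 31, 12.5% of 24 and 37.4% of 32851. TCACNCCAC occurred in 1 of 15 cholesterol genes, Hmgcs1 (6.67%), in 1 of 21 fatty acid genes (4.76%), in 2 of 21 acute phase genes (9.52%) and in 1.44% of all genes, so it was no more frequent in the cholesterol genes than in the acute phase genes. The E-box CACGTG, to which clock proteins and other factors bind, occurred in 4 of 15 cholesterol genes, 5 of 21 fatty acid genes, 0 of 21 acute phase genes and 8.09% of all genes. TTCNNNGAA, a palindrome of the STAT type, occurred in 1 of 15, 0 of 21 and 5 of 21 genes of these lists and in 9.55% of all genes. All motifs were searched on both strands. These matches describe the letters in the windows only.

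The cholesterol genes are taken in the order of the pathway. Hmgcs1, the synthase that makes HMG-CoA, was at 11.32, 11.34 and 10.16 in WT 1 to WT 3 and at 10.36, 10.37 and 10.29 in TB 1 to TB 3. The 3 TB arrays lay close together, WT 1 and WT 2 stood well above them, and WT 3 was the lowest of the 6. The difference was -0.99 (SE 0.27, limma adjusted p 0.43) without WT 3, which is 1.98-fold lower on this scale, and -0.60 (SE 0.28, adjusted p 0.648) with it. Mvd, the decarboxylase that gives isopentenyl diphosphate, was at 8.72, 8.13 and 7.59 in WT and at 7.75, 7.56 and 6.73 in TB. All TB arrays were below WT 1 and WT 2, and WT 3 lay between TB 1 and TB 2. Its difference was -1.08 (SE 0.28, limma adjusted p 0.43) without WT 3 and -0.80 (SE 0.27, adjusted p 0.559) with it. Mvk and Pmvk, the kinases that act between them, also had WT 1 and WT 2 above the TB arrays. Without WT 3 the difference was -0.71 for Mvk and -0.63 for Pmvk.

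Fdft1, squalene synthase and the first enzyme committed to sterols, was at 10.92, 10.98 and 10.26 in WT and at 10.47, 10.29 and 10.25 in TB. WT 1 and WT 2 stood above the other 4 arrays, which lay close together. The difference was -0.61 (SE 0.20, limma adjusted p 0.43) without WT 3. Sqle, the squalene epoxidase, was at 9.85, 9.03 and 8.37 in WT and at 9.00, 8.47 and 8.40 in TB, so WT 2 was only just above TB 1. Lss, lanosterol synthase, was at 8.93, 8.30 and 7.24 in WT and at 8.03, 7.97 and 7.36 in TB, again with WT 3 lowest. Msmo1, the sterol C4 demethylase, was at 10.75, 10.74 and 10.25 in WT and at 10.30, 9.92 and 9.69 in TB. Here WT 3 lay just under the highest TB array and above the other 2, and the difference was -0.77 (SE 0.21, limma adjusted p 0.43) without WT 3 and -0.61 (SE 0.20, adjusted p 0.559) with it. Some late steps differed less. Sc5d, a desaturase, had a difference of -0.23 and Ebp, an isomerase, had 0.03, the 1 member of the list above 0.

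Of the regulators, Srebf2, which encodes SREBP2, was at 8.74, 8.53 and 7.66 in WT and at 8.35, 8.07 and 7.86 in TB, and its difference without WT 3 was -0.54. Scap, the escort of SREBP, had -0.31 and Insig1, a sterol-sensing anchor counted here with the fatty acid genes, had -0.71. Rdh11, a retinol dehydrogenase outside the list, was at 8.72, 9.24 and 8.08 in WT and at 8.10, 8.28 and 7.87 in TB. It had the same pattern, with WT 1 and WT 2 above the other 4 arrays and a difference of -0.90 (SE 0.23, limma adjusted p 0.43) without WT 3.

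The cholesterol pattern was set against the 5 other times. The median difference of the 19 genes was 0.20 at ZT 0, 0.18 at ZT 4, -0.21 at ZT 8, 0.33 at ZT 16 and 0.11 at ZT 20. ZT 8 had the sign of ZT 12 and 13 of 19 genes below 0, and the other 4 times had between 1 and 3 of 19 below 0. In the limma test of the ZT 12 difference against the mean of the other times, without WT 3, 16 of the 19 had an unadjusted p under 0.05, all lower at ZT 12 (1.88% of all genes), and 0 passed the adjusted threshold. The smallest adjusted p of the list in that test was 0.761, for Hmgcs1 and Fdft1, whose differences of ZT 12 from the other times were -1.16 (SE 0.29) and -0.88 (SE 0.22). Over all genes this test gave an unadjusted p under 0.05 for 5.06%, with 3.19% higher at ZT 12. With WT 3 included it did so for 4.07%, with 1.79% higher and 2.28% lower, and the smallest adjusted p over all genes was then 0.9998.

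The levels of Hmgcs1 were followed over the day. In WT its mean was 11.28 at ZT 0, 11.55 at ZT 4, 10.84 at ZT 8, 11.33 at ZT 12 without WT 3, 10.21 at ZT 16 and 10.98 at ZT 20. In TB the means were 11.45, 11.77, 10.51, 10.34, 10.74 and 11.25 at the same times. The SD over 3 arrays was between 0.12 and 0.51 in WT at the other 5 times and between 0.05 and 0.40 in TB. WT 1 and WT 2 at ZT 12 were thus above the WT arrays of ZT 16, which ranged from 9.67 to 10.62, and the TB arrays at ZT 12 lay within the range seen in WT at other times. As a score, the mean over the 19 genes of the deviation from each gene's mean over the 36 arrays, the arrays of ZT 12 were at 0.36, 0.20 and -0.49 in WT and at -0.18, -0.24 and -0.44 in TB. The 30 arrays of the other times ranged from -0.56 to 0.40.

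**Figure D2:**
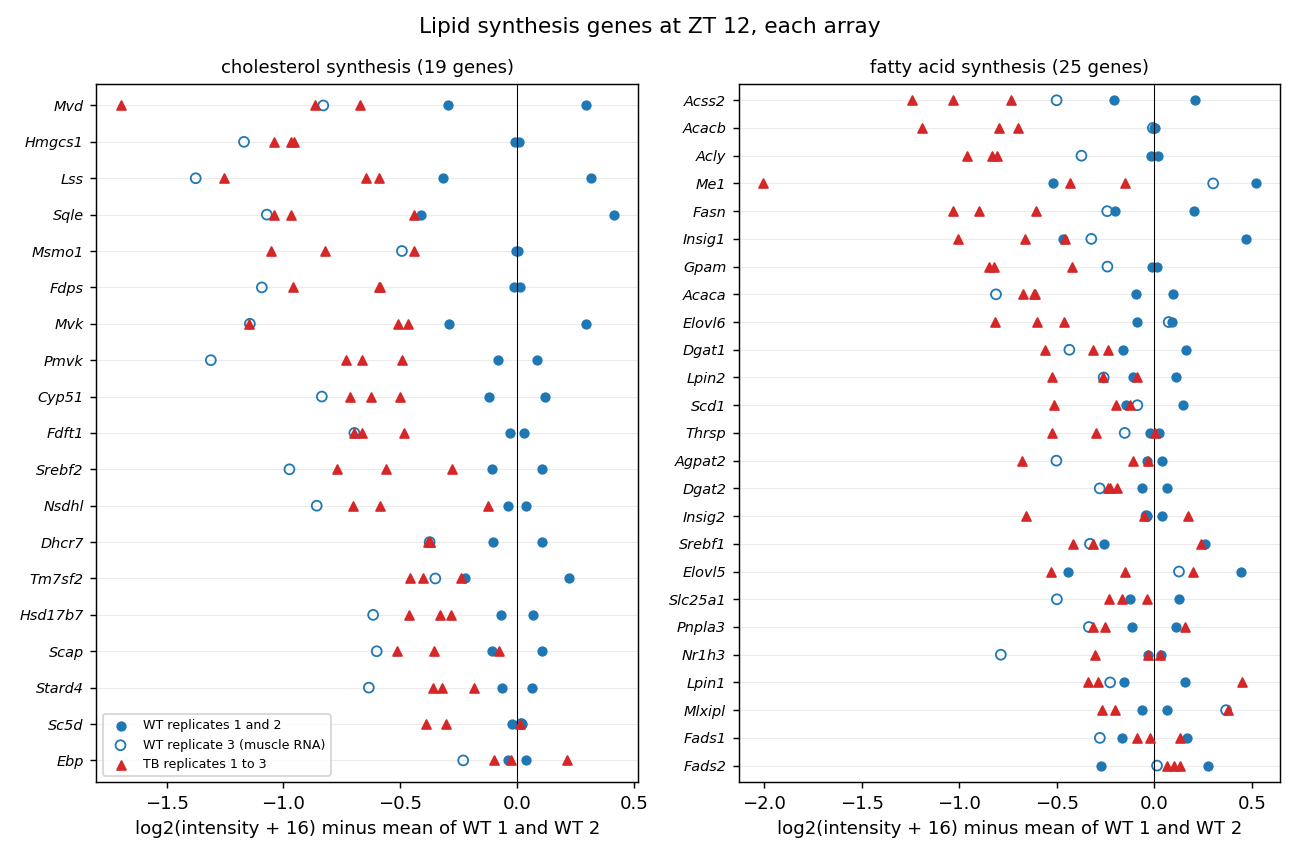
Each of the 6 arrays of ZT 12 for 19 cholesterol synthesis genes (left) and 25 fatty acid synthesis genes (right), as log2(intensity + 16) minus the mean of WT 1 and WT 2. Filled circles are WT 1 and WT 2, open circles are WT 3 and triangles are TB. On the left the open circles lie among or to the left of the triangles in most rows, and in the upper rows on the right they lie nearer to the filled circles.

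**Figure D3:**
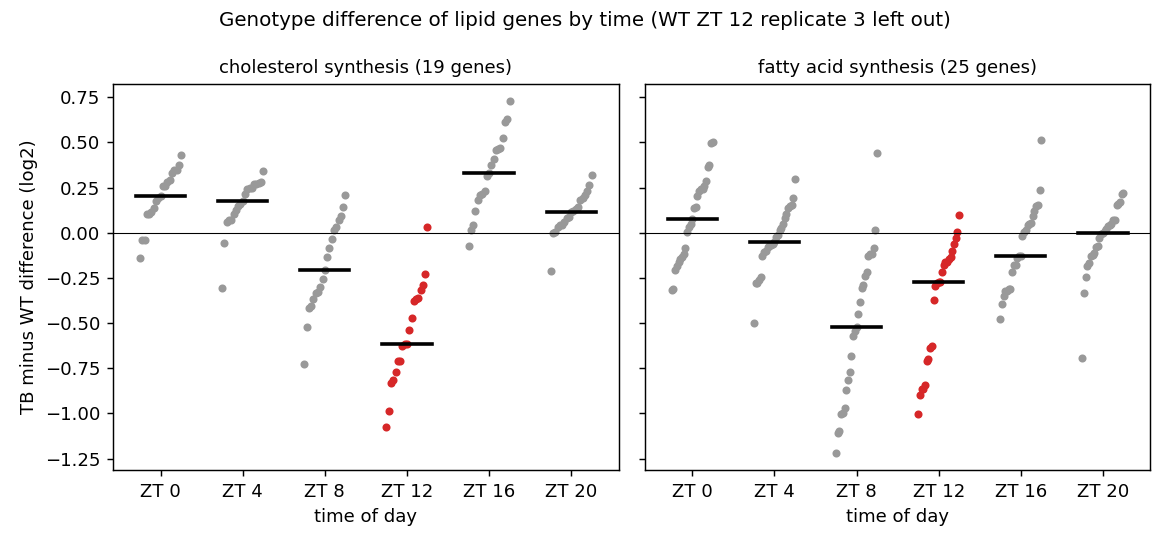
TB minus WT difference (log2) of each cholesterol synthesis gene (left) and fatty acid synthesis gene (right) at the 6 times, with WT ZT 12 replicate 3 left out. Points are genes, sorted within each time, black bars are medians and ZT 12 is red. The cholesterol medians are below 0 at ZT 8 and ZT 12 only, at -0.21 and -0.61, and the fatty acid medians are lowest at ZT 8 and ZT 12, at -0.52 and -0.27.

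The genes that make fatty acids stood lower in TB too, several of them also with WT 3 included. Of the 25 genes measured, 23 had a negative difference without WT 3 and 20 with it (47% and 46.5% of all genes). The medians were -0.27 and -0.21, and the median was -0.34 without replicate 3 of both genotypes. With all arrays but TB 1 it was -0.13. Unadjusted p-values under 0.05 were found for 8 genes without WT 3 and for 7 with all arrays, all lower in TB (3.49% and 3.94% of all genes). The TB arrays lay below all 3 WT arrays in 6 of the 25 and below WT 1 and WT 2 in 9 (4.26% and 11.9% of all genes). Acss2, the cytosolic acetyl-CoA synthetase, was at 9.99, 10.40 and 9.70 in WT and at 8.96, 9.46 and 9.17 in TB. No TB array reached a WT array, and the difference was -1.002 (SE 0.25, limma adjusted p 0.43) without WT 3, which is 2.00-fold lower, and -0.83 (SE 0.23, adjusted p 0.453) with it. Acly, ATP citrate lyase, was at 10.47, 10.43 and 10.07 in WT and at 9.64, 9.61 and 9.49 in TB. The groups did not overlap, and the difference was -0.87 (SE 0.25, limma adjusted p 0.43) without WT 3 and -0.74 (SE 0.23, adjusted p 0.478) with it. Fasn, fatty acid synthase, was at 11.70, 11.29 and 11.25 in WT and at 10.60, 10.89 and 10.46 in TB, again without overlap. Its difference was -0.85 (SE 0.24, limma adjusted p 0.43) without WT 3 and -0.76 (SE 0.22, adjusted p 0.457) with it.

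Acacb, the acetyl-CoA carboxylase at the mitochondrial surface, had the tightest WT group of the list. It was at 8.83, 8.83 and 8.82 in WT and at 7.64, 8.03 and 8.13 in TB. Gpam, which adds the first fatty acid to glycerol phosphate, was at 10.61, 10.58 and 10.35 in WT and at 9.77, 10.17 and 9.75 in TB. Neither gene had overlapping groups, and their differences with all arrays were -0.89 and -0.62. Acaca, the cytosolic carboxylase, followed the cholesterol pattern instead. It was at 9.28, 9.10 and 8.38 in WT and at 8.57, 8.51 and 8.58 in TB, so that WT 3 was the lowest array. Scd1, the stearoyl-CoA desaturase, was at 12.63, 12.92 and 12.69 in WT and at 12.65, 12.58 and 12.26 in TB, and Srebf1, which encodes SREBP1, was at 9.72, 9.21 and 9.13 against 9.15, 9.70 and 9.05, with overlapping groups for both. At ZT 8, 4 h earlier, the median difference of the 25 genes was -0.52 with 23 of 25 below 0, and at the other 4 times it lay between -0.13 and 0.08.

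Some glycolytic genes that feed lipid synthesis stood lower as well. Pklr, the liver pyruvate kinase, was at 11.20, 11.67 and 10.90 in WT and at 10.42, 10.84 and 10.59 in TB. Its groups did not overlap, and the difference was -0.64 (SE 0.31, limma adjusted p 0.67) with all arrays and -0.82 (SE 0.34, adjusted p 0.525) without WT 3. Pgk1, phosphoglycerate kinase, was at 10.34, 10.36 and 10.42 in WT and at 9.83, 10.10 and 10.17 in TB, also without overlap, and had a difference of -0.34 (SE 0.09, limma adjusted p 0.418). Ugp2, which makes UDP-glucose for glycogen, had -0.57 and Gckr, the inhibitor of glucokinase, had -0.30 with all arrays. In the glycolysis and glycogen list, 6 of the 18 genes had the TB arrays below all 3 WT arrays and 0 above. Below were 4.26% of all genes and 727 of the 12318 at 6 or more. Pigq, which is not a glycolytic gene, stands among the 18 because it was matched to Gpi1 by synonym. The median was -0.17 with all arrays and -0.19 without WT 3. With all arrays it was -0.08 after quantile normalization and -0.11 without TB 1. Genes of the opposite pathway stayed close. The 13 gluconeogenesis genes had medians of 0.01 and -0.03. None had an unadjusted p under 0.05 in either fit (7.41% and 8.76% of all genes did). Pck1, the PEP carboxykinase, was at 12.30, 12.09 and 11.94 in WT and at 12.44, 12.02 and 12.17 in TB. Of 20 insulin signalling genes, 1 had an unadjusted p under 0.05 in each fit (7.41% and 8.76% of all genes). These were Pik3ca with all arrays and Igfbp3 without WT 3, both lower in TB.

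Genes of bile acid synthesis were uneven. Cyp8b1, the sterol 12-hydroxylase that sets the share of cholic acid, was at 9.51, 10.92 and 9.81 in WT and at 8.92, 9.22 and 9.13 in TB. The groups did not overlap and the WT arrays were wide apart, with a difference of -0.99 (SE 0.33, limma adjusted p 0.559) with all arrays and -1.13 (SE 0.36, adjusted p 0.43) without WT 3. Akr1d1, the reductase of the steroid ring, was at 10.13, 10.16 and 9.67 in WT and at 9.50, 9.60 and 9.55 in TB. It too had no overlap, and differences of -0.44 (SE 0.15, limma adjusted p 0.559) and -0.60 (SE 0.16, adjusted p 0.43). Cyp7a1, the rate-limiting enzyme of bile acid synthesis, was at 11.45, 11.58 and 10.94 in WT and at 11.43, 11.25 and 11.50 in TB, with overlap, and its difference was 0.07 (SE 0.31) with all arrays and -0.12 (SE 0.34) without WT 3. Of the 21 genes of the list, 3 had the TB arrays below all 3 WT arrays (4.26% of all genes, 727 of the 12318 at 6 or more). In 7 they lay below WT 1 and WT 2 (11.9% of all genes, 2172 of the 12318). The median was -0.09 with all arrays and -0.15 without WT 3. After quantile normalization these medians were -0.004 and -0.07, and with all arrays but WT 2 the median was 0.01.

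Among cytochrome P450 genes for foreign compounds, single WT arrays set the largest differences. Cyp3a11, the main drug-oxidising P450 of mouse liver, was at 10.17, 10.83 and 8.76 in WT and at 8.45, 9.97 and 9.07 in TB. Without WT 3 the groups did not overlap and the difference was -1.33 (SE 0.42, limma adjusted p 0.43), and with it they overlapped and the difference was -0.75 (SE 0.43, adjusted p 0.728). Cyp2b9, a P450 typical of female liver, was at 10.86 in WT 1 and at 6.49, 6.10, 5.79, 6.13 and 6.62 in WT 2, WT 3 and the TB arrays. Only WT 1 stood apart, and the difference was -2.49 (SE 1.04, limma adjusted p 0.522) without WT 3. Xist, the RNA of the inactive X chromosome, was between 5.33 and 5.69 in all 6 arrays, and the Y-linked Kdm5d was between 6.67 and 7.05.

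The acute phase genes divided the WT arrays. Fgl1, a hepatocyte protein induced by IL-6, was at 12.42, 9.67 and 8.87 in WT and at 12.09, 11.72 and 12.01 in TB. WT 1 was the highest of the 6, the TB arrays were close behind, and WT 2 and WT 3 were far below. The difference was 1.62 (SE 0.70, limma adjusted p 0.615) with all arrays and 0.90 (SE 0.73, adjusted p 0.728) without WT 3. Lcn2, lipocalin 2, an iron-scavenging protein of innate defence, was at 12.33, 8.67 and 7.56 in WT and at 11.21, 10.52 and 11.09 in TB. Saa2, a serum amyloid A, was at 12.42, 8.62 and 6.31 in WT and at 10.83, 8.89 and 9.02 in TB. Mt2, a metallothionein, was at 12.60, 10.02 and 8.38 in WT and at 12.63, 11.52 and 12.09 in TB. In each of these the order was the same, with WT 1 at or near the top, WT 3 at the bottom and TB between them.

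This order held for most of the list. Of 26 acute phase genes, 20 were highest of all 6 arrays in WT 1 (3192 of the 22180 genes were), and 23 were higher in WT 1 than in WT 2 and WT 3 (28.7% of all genes). The 3 TB arrays were above both WT 2 and WT 3 in 23 of 26 (11.8% of all genes), and above all 3 WT arrays in 1, Hamp. With all arrays 24 of 26 differences were above 0, 2 of them at an unadjusted p under 0.05 (Fgl1 and Itih4; 3.48% of all genes were higher in TB at that level), and the median was 0.35. Without WT 3 the median was 0.09 and none had an unadjusted p under 0.05 (8.76% of all genes did). Without WT 1 the median was 0.84 with the other 5 arrays, and against WT 1 alone it was -0.43. At ZT 0, 4, 8, 16 and 20 the median was -0.06, 0.47, 0.57, 0.62 and 0.15. The score of the list over its genes, made as for cholesterol synthesis, was 1.15, -0.34 and -0.81 in WT and 0.71, 0.30 and 0.50 in TB. WT 1 ranked 2 and WT 3 ranked 36 of the 36 arrays of the series.

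**Figure D4:**
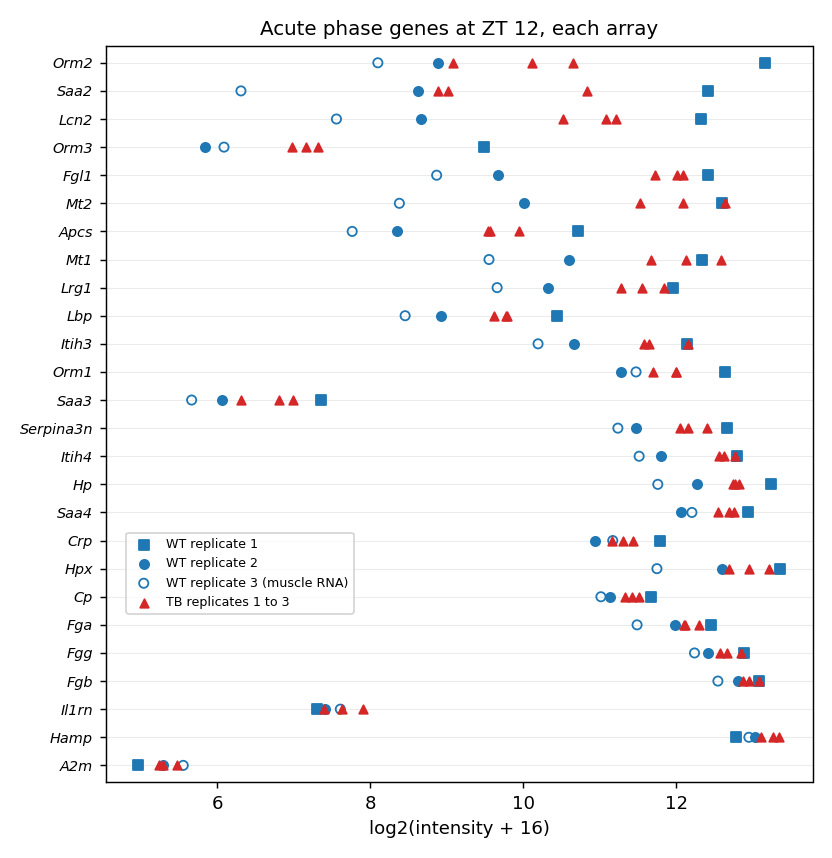
Levels, log2(intensity + 16), of 26 acute phase genes in the 6 arrays of ZT 12, ordered by the gap between WT 1 and WT 2. Squares are WT 1, filled circles WT 2, open circles WT 3 and triangles TB. In most rows the square lies to the right, the triangles in the middle and both circles to the left.

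The upstream genes followed in part. Socs3, the feedback inhibitor that STAT3 induces, was at 7.36, 5.59 and 5.20 in WT and at 7.48, 6.68 and 7.01 in TB. Stat3 was at 10.12, 9.20 and 9.08 in WT and at 10.11, 9.84 and 10.00 in TB. Both had WT 1 with the TB arrays and WT 2 and WT 3 below. Of the 22 IL-6 and STAT3 genes, 1 had the TB arrays above all 3 WT arrays (6.79% of all genes). This was Il6st, the shared receptor chain gp130, at 10.33, 10.20 and 9.97 in WT and at 10.83, 10.54 and 10.74 in TB. Its difference was 0.54 (SE 0.16, limma adjusted p 0.477) with all arrays and 0.44 (SE 0.18, adjusted p 0.514) without WT 3. Selp, P-selectin of activated endothelium, was at 5.36, 5.46 and 5.40 in WT and at 6.56, 5.89 and 6.35 in TB, with a difference of 0.86 (SE 0.31, limma adjusted p 0.577) with all arrays. Macrophage markers were also highest in WT 1. Of 14 Kupffer cell and macrophage markers, 12 were highest of all 6 arrays in WT 1 (3192 of the 22180 genes were). The summed intensity of the 14 markers was 4183 in WT 1, 2522 in WT 2, 1689 in WT 3 and between 2541 and 3077 in TB. Their part in the acute phase values was not tested.

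Of 13 iron genes, 2 had the TB arrays above and 2 below all 3 WT arrays (6.79% and 4.26% of all genes). Hjv, hemojuvelin, the co-receptor through which BMP signals raise hepcidin, was at 9.28, 9.28 and 9.72 in WT and at 8.92, 8.79 and 8.42 in TB. No TB array reached a WT array, and the difference was -0.71 (SE 0.14, limma adjusted p 0.199) with all arrays and -0.57 (SE 0.15, adjusted p 0.43) without WT 3. Hjv is also made in skeletal muscle, and WT 3 was the highest array. Hamp, hepcidin itself, was at 12.79, 13.03 and 12.95 in WT and at 13.34, 13.27 and 13.11 in TB, above WT without overlap, with a difference of 0.32 (SE 0.21, limma adjusted p 0.783). Hamp2, its close copy, was at 7.00, 7.67 and 6.98 in WT and at 6.09, 5.34 and 4.62 in TB, with a difference of -1.86 (SE 0.74, limma adjusted p 0.583). The copies are similar in sequence, so the split of signal between their probe sets is uncertain.

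Genes of oxidative phosphorylation, the respiratory chain and ATP synthase of mitochondria, stood lower in TB by small steps. All 33 genes measured had a negative difference with all arrays (46.5% of all genes), with a median of -0.30. Without WT 3, 31 of 33 did (47% of all genes), with a median of -0.21. After quantile normalization these medians were -0.20 and -0.09, and against WT 1 alone the median was -0.14. Of the 12318 genes with a mean of at least 6, 6890 were below 0 with all arrays and 7347 without WT 3. The TB arrays were below all 3 WT arrays in 12 of 33 and below WT 1 and WT 2 in 17 (4.26% and 11.9% of all genes). Sdhd, a membrane anchor of succinate dehydrogenase, was at 9.93, 10.09 and 9.96 in WT and at 9.67, 9.68 and 9.67 in TB. Its TB arrays lay close together, and the difference was -0.32 (SE 0.09, limma adjusted p 0.457) with all arrays and -0.33 (SE 0.10, adjusted p 0.43) without WT 3. Uqcrfs1, the Rieske protein, was at 8.99, 9.19 and 9.09 in WT and at 8.78, 8.74 and 8.74 in TB. Ndufs1, the largest subunit of complex I, was at 8.82, 8.92 and 9.49 in WT and at 8.48, 8.46 and 8.72 in TB. Neither had overlapping groups, and in Ndufs1 the muscle-bearing array was the highest. WT 3 was the highest of the 6 arrays in 20 of the 33 genes (4731 of all 22180 genes), and its score over the list, 0.32, ranked 1 of 36. The muscle markers of that array stand beside this result, and their part in it was not tested. At ZT 0, 4, 8, 16 and 20 the list median was 0.04, -0.09, -0.24, -0.19 and -0.04. At these times 10, 29, 32, 33 and 25 of the 33 genes were below 0, so a lower level in TB was not particular to ZT 12. Without WT 3, 8 of the 33 genes had an unadjusted p under 0.05, against 17 with it, all lower in TB (3.49% and 3.94% of all genes).

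The core clock genes had a small median difference. None of the 17 had an unadjusted p under 0.05 in either fit (7.41% and 8.76% of all genes did). The median was -0.09 with all arrays (0.01 after quantile normalization) and -0.03 without WT 3. Below 0 were 14 of 17 with all arrays and 12 of 17 without WT 3 (46.5% and 47% of all genes). Of the 17, 1 had the TB arrays below all 3 WT arrays (4.26% of all genes). This was Nr1d1, which encodes the repressor REV-ERB alpha. It was at 8.15, 8.63 and 8.82 in WT and at 8.13, 7.95 and 8.02 in TB, with TB 1 only just below WT 1. Its difference was -0.50 (SE 0.37, limma adjusted p 0.807). Dbp, an output of the clock, was at 9.64, 10.39 and 9.62 in WT and at 10.31, 9.90 and 9.44 in TB. Per1 was at 8.74, 8.73 and 8.79 in WT and at 9.06, 8.68 and 8.78 in TB.

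Single genes higher in TB with small p-values were of varied kinds. Plxnc1, a semaphorin receptor, was at 7.32, 7.30 and 6.98 in WT and at 8.13, 7.95 and 8.45 in TB. The groups were clearly apart, and the difference was 0.98 (SE 0.20, limma adjusted p 0.199) with all arrays and 0.86 (SE 0.22, adjusted p 0.43) without WT 3. Wif1, a secreted Wnt inhibitor, was at 6.73, 6.77 and 6.75 in WT and at 7.50, 7.37 and 7.30 in TB. Its difference was 0.64 in both fits (SE 0.13 and 0.15), with a limma adjusted p of 0.199 with all arrays. Clca3a1, a chloride channel accessory protein, was at 6.44, 5.62 and 5.34 in WT and at 7.68, 7.72 and 8.01 in TB. Its difference was 2.00 (SE 0.46, limma adjusted p 0.334) with all arrays, which is 4.01-fold, and it lay between 0.92 and 1.46 at the 5 other times. Upp1, a uridine phosphorylase, had a difference of 0.44 and Samsn1, a lymphocyte adaptor, 0.46 with all arrays. Rsph1 and Dnah2, which encode parts of the ciliary axoneme, had 0.56 and 0.50. None of these had overlapping groups. Genes ranked by p without WT 3 were named only if the TB arrays did not overlap WT 1 and WT 2. For those genes, here and in the next paragraph, the lack of overlap with WT 1 and WT 2 was set by the choice. Of all genes, 6.79% had the TB arrays above and 4.26% below all 3 WT arrays. Tas2r134, a bitter taste receptor at a low level, differed from the other times by 1.44 (SE 0.30, limma adjusted p 0.373) without WT 3. It was at 5.47, 4.61 and 6.52 in WT and at 6.36, 6.22 and 6.51 in TB, so WT 3 lay with the TB arrays.

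Of the named genes, the smallest p without WT 3 was that of Pstpip2, an adaptor protein of the actin cytoskeleton in myeloid cells. It was at 9.29, 9.27 and 8.61 in WT and at 8.34, 8.30 and 8.05 in TB. The groups did not overlap, WT 3 lay between them, and the difference was -1.05 (SE 0.21, limma adjusted p 0.344) without WT 3, which is 2.07-fold lower, and -0.83 (SE 0.20, adjusted p 0.401) with it. At ZT 0, 4, 8, 16 and 20 its difference was 0.09, 0.09, -0.58, 0.36 and 0.27, and the test of ZT 12 against these gave -1.10 (SE 0.23, limma adjusted p 0.373). Fam180a, a secreted protein gene of little known role, was at 6.27, 6.45 and 6.25 in WT and at 5.22, 5.52 and 5.58 in TB, with a difference of -0.88 (SE 0.20, limma adjusted p 0.334) with all arrays. Rhoq and Lrrc20 were lower in TB without overlap, but WT 3 was highest in both. Rhoq, a small GTPase, was at 6.55, 6.78 and 7.87 in WT and at 5.94, 6.24 and 6.34 in TB, and its difference of -0.89 with all arrays was -0.49 without WT 3. Pdk4, the pyruvate dehydrogenase kinase that muscle makes in fasting, was at 6.68, 7.10 and 10.16 in WT and at 6.33, 6.44 and 6.61 in TB, and its difference went from -1.52 to -0.43 when WT 3 was left out.

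Markers of other cell types differed by small amounts, and 0 passed the adjusted threshold in limma in either fit. Hepatocyte markers had a median difference of 0.06 with all arrays and -0.01 without WT 3 (0.01 after quantile normalization). Of 12 liver endothelial markers, Clec4g, a lectin of sinusoidal endothelium, was the furthest apart, at 8.74, 8.95 and 8.38 in WT and at 9.47, 9.28 and 9.39 in TB, with a difference of 0.69 (SE 0.18, limma adjusted p 0.418). Fcgr2b and Tek, of the same cells, had 0.33 and 0.29. With all arrays 8 of the 12 were above 0 and 4 below, the lowest at -0.49. Unadjusted p-values under 0.05 in limma were found for 3 higher and 1 lower in TB (3.48% and 3.94% of all genes). The median of the 12 was 0.06 with all arrays (0.005 after median centring) and 0.08 without WT 3. The list summed to between 2971 and 3611 in WT and between 3468 and 4424 in TB. The 10 lung epithelium markers summed to between 543 and 586 in WT and between 619.6 and 640.2 in TB, and their median difference was 0.13 with all arrays and 0.09 without WT 3 (0.01 after median centring). The sums of the genotypes did not overlap. Singly, 3 of the 10 had the TB arrays above all 3 WT arrays (6.79% of all genes). In each fit 1 had an unadjusted p under 0.05 (7.41% and 8.76% of all genes did). Scgb1a1 of this list was under 16 intensity units in all 6 arrays, and Sftpc and Nkx2-1, the defining surfactant and lineage genes, were between 5.77 and 6.32 and between 5.32 and 5.71. The 11 T and NK cell markers had a median of 0.12 with all arrays (0.05 after quantile normalization and 0.07 after median centring) and of 0.11 without WT 3 (0.06 and 0.03), where 11 of 11 were above 0 (11759 of all 22180 genes). They summed to between 570.3 and 641 in WT and between 655 and 742 in TB, again without overlap. Singly, 2 of the 11 had the TB arrays above all 3 WT arrays (6.79% of all genes). In either fit 0 had an unadjusted p under 0.05 (7.41% and 8.76% of all genes did). Of the 5 cholangiocyte markers measured, all had a difference above 0 without WT 3. The TB arrays were above WT 1 and WT 2 in 4 (17.2% of all genes), and 2 had an unadjusted p under 0.05 (5.26% of all genes higher in TB). Their median was 0.23 (0.15 after quantile normalization or median centring), and 0.13 with all arrays. Epcam, an adhesion protein of bile duct epithelium, was at 5.60, 5.31 and 5.70 in WT and at 5.73, 5.80 and 6.01 in TB, a low level in every array. Of the 14 Kupffer cell and macrophage markers, 12 were below 0 without WT 3, with a median of -0.17, and 12 were above 0 with all arrays, with a median of 0.07. Against WT 2 alone their median was 0.10 and against WT 1 alone -0.51, so the direction turned with the WT array. The part of these markers in the other results was not tested. The 13 stellate cell and fibroblast markers summed to 7079.9 in WT 3 and to between 2902 and 4306 in the other 5 arrays. This list holds Des, desmin, which is a muscle marker too, and without it, a sum chosen after seeing the data, the 12 others came to 4725 in WT 3 and to between 2852 and 4251 in the other 5. Of the 6 adipocyte markers, 3 were above 0 and 3 below with all arrays, with a median of 0.01 (0.10 without WT 3). The differences ran from -1.30 to 0.60, and 1 marker had the TB arrays above all 3 WT arrays (6.79% of all genes). Fabp4, a fatty acid carrier of fat and endothelium, was the lowest, at 6.99, 6.23 and 8.43 in WT and at 6.33, 5.41 and 6.01 in TB.

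**Figure D5:**
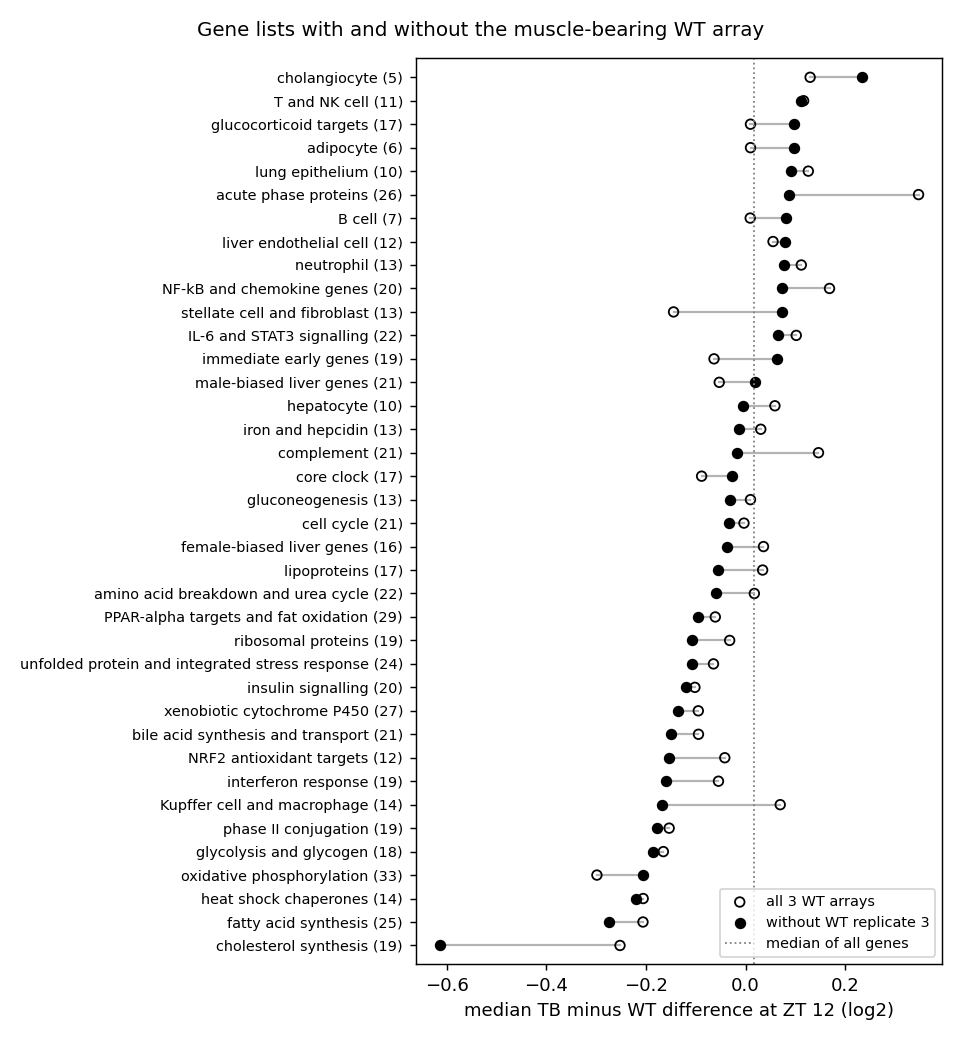
Median TB minus WT difference (log2) at ZT 12 of 38 gene lists, with the number of genes in brackets. Open circles use all 3 WT arrays, filled circles leave out WT 3 and the dotted line is the median of all genes without WT 3. Leaving out WT 3 moves cholesterol synthesis from -0.25 to -0.61 and acute phase proteins from 0.35 to 0.09, and Kupffer cell and macrophage markers from 0.07 to -0.17.

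Among the remaining lists, heat shock chaperones had medians of -0.21 and -0.22 (-0.14 and -0.13 after quantile normalization). In each fit 13 of the 14 were below 0 (46.5% and 47% of all genes, 6890 and 7347 of the 12318 at 6 or more). The TB arrays were below all 3 WT arrays in 1 of the 14 chaperones (4.26% of all genes). Their median was -0.03 against WT 2 alone and -0.41 against WT 1 alone, and -0.05 with all arrays but TB 1. Interferon response genes had -0.05 with all arrays and -0.16 without WT 3. In the second, 15 of 19 were below 0 (47% of all genes, 7347 of the 12318 at 6 or more). The second median was -0.07 against WT 2 alone. Fat oxidation and PPAR-alpha targets, 29 genes, followed single arrays. Cidec, a lipid droplet protein, was at 5.23, 8.16 and 6.22 in WT and at 5.73, 7.97 and 7.72 in TB. Their list score was lowest in WT 1 and TB 1, at -0.23 and -0.24, and highest in WT 2, at 0.82, the top of the 36 arrays. The spread within a genotype was thus larger than the gap between genotypes, whose median was -0.06 with all arrays and -0.09 without WT 3, and 0.22 against WT 1 alone and -0.54 against WT 2 alone. The 21 cell cycle genes had a median of -0.03 without WT 3. Of 24 genes of the unfolded protein and integrated stress response, 12 were highest of the 6 arrays in WT 1, as were 3192 of all 22180 genes. Hyou1, a chaperone of the unfolded protein response, was at 9.77, 8.42 and 8.56 in WT and at 8.05, 8.59 and 8.33 in TB.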

How the data were processed

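RNA of mouse liver was measured on 36 1-colour Affymetrix arrays. The deposited values are linear probe set intensities, made by the authors with Affymetrix Expression Console 1.1.1 and PLIER 2.0 per the submitters' processing notes, and no source used here states a normalization between arrays. Medians of the arrays were 36.3 to 43.3 units, and 23.0% of values were under 16. Of 41345 probe sets, 23521 had 1 gene symbol in the platform annotation and were named, and 23328 of these matched RefSeq by Entrez identifier. The probe set with the highest mean stood for a gene, which gave 22180 genes.

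Values were taken as log2(value + 16) with no filter and tested with limma 3.58.1 in R 4.3.3 (lmFit, eBayes, two-sided, Benjamini-Hochberg at 0.05 over all genes), with 12 group means over 36 arrays, or over 35 without WT ZT 12 replicate 3. Code was tested on simulated data. Named genes were the 12 smallest p-values per direction without that array (level at least 6, no overlap), 4 per direction with all arrays, 4 per direction against the other times, up to 4 per list and all clock genes. Other members are given where a list is described. The comparison, its members and the 42 gene lists were chosen with earlier results of these data known. List symbols not found were matched by synonym, which put Pigq in place of Gpi1, Olfr48 of C3 and Mrpl23 of Rpl23. These stand in the glycolysis, complement and ribosomal protein lists though they are other genes. Same-numbered WT and TB arrays deviated together (r = 0.110, 0.174 and 0.163 over genes), so a fit with the replicate number as a block was made beside each. The transgenic genes are not analysed here.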

Additional observations from a re-analysis of the deposited data

Results flagged for a closer look

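Probe set 17549126, which has no gene symbol in the annotation and so entered no comparison of genes, separated the genotypes in every array of the series. Its median intensity was 315 over the 18 TB arrays, with a range from 270.2 to 404, and 1.16 over the 18 WT arrays, with a range from 0.003 to 3.54. It was listed because a signal stood above the level of the control arrays in data outside the main measurement. At ZT 12 it was the 1 probe set called by limma when all 41345 probe sets were tested, with an adjusted p of 4.11e-22 with all arrays and 2.76e-20 without WT ZT 12 replicate 3.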

How the results depend on the processing

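The count of 0 genes at an adjusted p of 0.05 in limma was obtained with all arrays, without WT ZT 12 replicate 3 and in the test against the other 5 times. With all probe sets tested it was 1 in the first 2 of these. With array weights it was 1 without replicate 3, I730030J21Rik at an adjusted p of 0.0364. Leaving out single arrays of ZT 12 gave 0 to 20 genes with all arrays, the 20 without WT replicate 1, and 0 to 0 in the other tests. Of the named genes with a difference of at least 0.3 (101 with all arrays, 125 without replicate 3), 0 changed sign under another pseudocount, quantile normalization, median centring, the mean of probe sets or the array set as a block. Many of these genes were chosen for a small p or for lack of overlap. Their stable sign was thus in part set by the choice and by the limit of 0.3. With all arrays 2 did with array weights, 2 without WT 1, 5 without WT 3, 1 without TB 1 and 6 without both replicate 3 arrays. In the fit without replicate 3, 6 did without WT 1 and 10 without WT 2.

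The replicate block changed no call: within each time it gave 0 genes, with 2049 at an unadjusted p under 0.05 and a smallest adjusted p of 0.164 with all arrays, and 0 with 2367 and 0.176 without replicate 3. Without replicate 3 the cholesterol median was -0.48 after quantile normalization and -0.70 after median centring, and it was -0.50 and -0.64 against WT 2 and WT 1 alone. All-gene medians stayed between -0.07 and 0.02. Only 2 WT arrays remain without replicate 3, which limits every statement on cholesterol genes.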
